A study of Homo sapiens with 33 samples.

Results

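The comparison described here takes the whole induced course of a gonadal differentiation from its start to its end: the 3 libraries of day 14 IND against the 3 libraries of day 4, which are 6 of the 33 RNA-seq libraries of the series, across all genes. The cells were H9, an established human embryonic stem cell (hESC) line, in which a dCas9-VP192 activator stabilised by trimethoprim (TMP) and switched on by doxycycline (DOX) is guided to the promoter of FOXL2. The day 4 cells had gone through activin A, the WNT agonist CHIR, dorsomorphin and BMP7 and were taken before induction. The day 14 IND cells had then spent the remaining days in the later medium with DOX and TMP, and the day 14 CTRL cells, used here as the second reference, had spent them in that medium without both compounds.

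All 3 groups carry the activator and its guides, they come from 1 clone, and each group's 3 libraries were parallel wells within a single differentiation. The adjusted p-values therefore measure the spread between wells, not between differentiations or clones. Day 14 IND differed from day 4 in time, medium, DOX, TMP and FOXL2 activation at once, and within this comparison these cannot be told apart. No group received DOX and TMP without the activation, so the compounds and the activation cannot be told apart in the comparison with CTRL either.

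Granulosa cells, the somatic cells around the oocyte, depend on FOXL2, a DNA-binding regulator of the forkhead family, to keep their identity in the ovary. In the embryo the gonad arises from the coelomic epithelium that covers the intermediate mesoderm, where transcription factors such as WT1, GATA4, LHX9 and NR5A1 mark the bipotential state before supporting cells become granulosa cells in the ovary or Sertoli cells in the testis. A hESC on this path first loses the pluripotency network, passes through a primitive streak-like and mesodermal state that needs WNT and BMP signals, and then takes on a coelomic epithelial state.

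The activated promoter lies between 2 genes that start back to back. In GRCh38, FOXL2 (ENSG00000183770) occupies chromosome 3 from 138944224 to 138947140 on the minus strand, and FOXL2NB (ENSG00000206262) starts on the plus strand 93 bases away, running from 138947234 to 138953451. LINC01391 (ENSG00000244578), a long intergenic non-coding RNA gene on the same strand as FOXL2, runs from 138935189 to 138944020 and starts 203 bases beyond the 3′ end of FOXL2. The sequence between the annotated starts of FOXL2 and FOXL2NB (chr3:138947141-138947233, minus strand, outside both annotated genes) is shown because all 3 genes at this locus changed together, and the upstream 250 bases of SPRR2F (chr1:153113517-153113766, minus strand) and ZFP42 (chr4:187995521-187995770, plus strand) are shown for a gene that was at 0 at day 4 and one that fell. They are from RefSeq, GRCh38.p14, written 5′ to 3′ on the strand of the named gene, and capitals mark TATAAA.
FOXL2 to FOXL2NB: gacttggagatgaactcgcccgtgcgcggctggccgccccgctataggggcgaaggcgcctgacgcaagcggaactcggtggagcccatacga
SPRR2F upstream: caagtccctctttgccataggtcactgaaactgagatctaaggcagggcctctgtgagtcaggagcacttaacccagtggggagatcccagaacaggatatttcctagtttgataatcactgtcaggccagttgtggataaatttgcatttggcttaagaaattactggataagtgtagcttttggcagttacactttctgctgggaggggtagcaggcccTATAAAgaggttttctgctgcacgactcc
ZFP42 upstream: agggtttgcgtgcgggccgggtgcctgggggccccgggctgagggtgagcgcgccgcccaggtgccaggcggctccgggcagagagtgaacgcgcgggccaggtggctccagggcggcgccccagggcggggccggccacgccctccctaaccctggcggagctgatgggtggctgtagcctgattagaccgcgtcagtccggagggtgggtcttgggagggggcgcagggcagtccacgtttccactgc
The TATAAA of SPRR2F starts 29 bases upstream of the RefSeq start, and 10.7% of the 35116 RefSeq windows of 250 upstream bases hold TATAAA on either strand. The forkhead core GTAAAC, or GTTTAC on the other strand, is in none of the 3 sequences. It is in 6.34% of all 250-base windows, and in those of 1 of the 10 genes with the largest rises that matched the RefSeq table (FOXL2 itself, in the part that FOXL2NB transcribes) and 2 of the 7 with the largest falls (CFC1 and PLSCR5). A gene was counted if any of its windows held the core, so the gene counts and the share of windows are unlike measures.

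FOXL2, the targeted gene, was at 0.363, 0.381 and 0.388 CPM (counts scaled to a common library size with TMM factors) in the 3 day 4 libraries and at 185, 180 and 147.5 CPM in the 3 day 14 IND libraries. All induced libraries were therefore far above all day 4 libraries, and the labels of the 6 libraries fit this gene. The log2 fold change was 8.80 ± 0.179 (SE, edgeR quasi-likelihood, adjusted p = 1e-08). In day 14 CTRL, FOXL2 stood at 0.0267, 0.14 and 0.203 CPM, under every day 4 library. FOXL2NB, of which day 4 held 4 counts in all, reached 41.5, 39.6 and 35.7 CPM at day 14 IND, a ratio of 841 with a 95% exact interval of 328 to 3090. LINC01391 had 0 counts in every day 4 and day 14 CTRL library and 21.8, 20.2 and 20.5 CPM at day 14 IND, at least 202-fold higher when 3 counts per library are set as the floor. Since the libraries do not keep the strand, reads of the 3 neighbours near their ends cannot be assigned with certainty.

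In these 6 libraries 30897500 to 51900017 fragments were counted per library, and a count of 3, the floor used below, corresponded to 0.0581 to 0.109 CPM. Day 4 replicate 3 stood apart from its group: mitochondrial genes took 1.14% of its counts, against 3.33% and 4.28% in the other day 4 libraries and 2.73% to 3.11% at day 14 IND. Its log2 CPM correlated with theirs at 0.973 and 0.967, theirs with each other at 0.98. The results were therefore also computed without this library. Among the gene lists described below, the number called then moved most in cytosolic ribosomal proteins (22 lower in place of 16), the Notch pathway (13 higher in place of 9) and stress genes (17 called in place of 13). Of the pluripotency factors that define the starting line, NANOG had 2 counts in all at day 4 and 2 at day 14 IND, so it could not be followed.

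Of 18858 genes tested, 9533 (50.6%) changed between day 4 and day 14 IND, 4856 (25.8%) higher and 4677 (24.8%) lower, by edgeR's quasi-likelihood test at an adjusted p of 0.05. Without day 4 replicate 3, 5694 were higher and 5028 lower. With all 6 libraries, 3136 of the 4856 higher and 1746 of the 4677 lower genes changed by at least 2-fold, and 1701 and 452 by at least 4-fold. In 11347 genes (60.2%) the 3 libraries of one group did not overlap with those of the other. The split of calls depends on the scaling, since with library totals alone 6238 genes were higher and 3292 lower and the median log2 fold change of all genes was 0.20 in place of 0.00. For changes from day 4, a share of members called is read below against 25.8% higher and 24.8% lower.

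**Figure D1:**
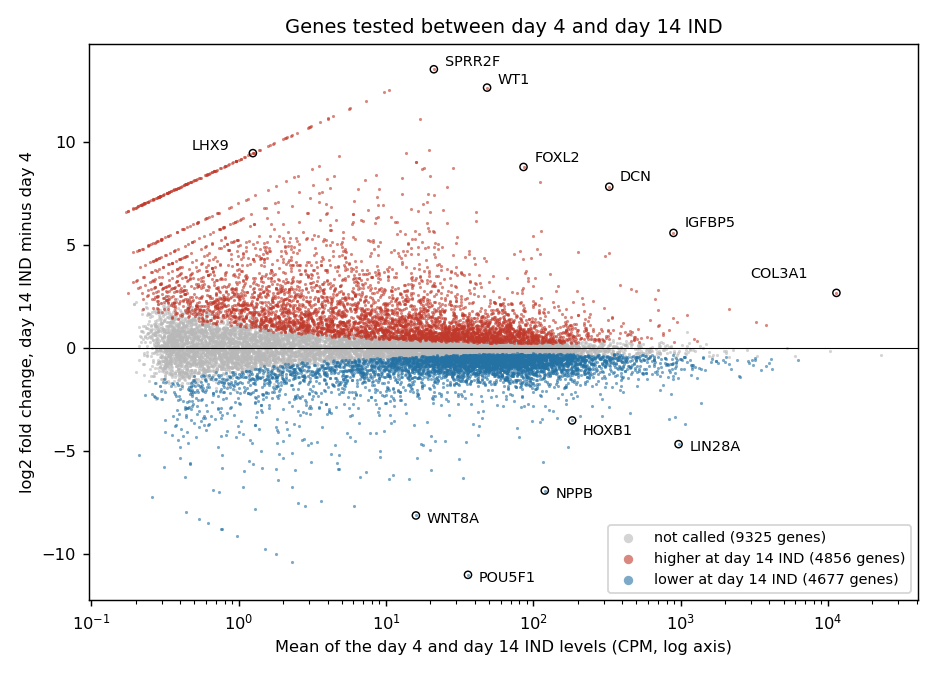
Each point is 1 of the 18858 genes tested, with its mean level over both groups (CPM, log axis) against its log2 fold change, day 14 IND minus day 4; red genes were called higher, blue genes lower and grey genes were not called. SPRR2F and WT1 lie at the top, POU5F1 at the bottom, and COL3A1 is the gene with the highest level among those labelled; the straight lines of points at the left are genes with 0 or few counts in one group, whose fitted fold depends on the prior count.

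A total of 133 genes, 117 of them protein coding, had at most 3 counts in each day 4 library and at least 1 CPM in each day 14 IND library. In the other direction there were 11 genes, 8 of them protein coding, among them TBXT and MSGN1, transcription factors of the primitive streak and the presomitic mesoderm, and FGF4, a growth factor of pluripotent cells. The rule was stricter in this direction, since 3 counts were 0.0581 to 0.0913 CPM at day 14 IND and 0.097 to 0.109 CPM at day 4. POU5F1, described below, is not among the 11 because its counts in day 14 IND replicate 1 passed 3. The 133 included WT1, the neuronal transcription factor POU4F1 and SFRP4, a secreted WNT inhibitor. A bulk library cannot tell fewer cells of a type from less RNA per cell, for these genes and all others.

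Of the 13 pluripotency genes tested, 9 fell and none rose, with a median log2 fold change of -1.94 against 0.00 over all genes, and of the 20 primitive streak and nascent mesoderm genes 17 fell and none rose (median -2.83). POU5F1, the core pluripotency factor whose pseudogenes share much of its sequence, was at 75.7, 70.4 and 69.4 CPM at day 4 and at 0.122, 0 and 0 CPM at day 14 IND. Day 14 IND held 4 POU5F1 counts in all, and day 4 was 2250-fold higher (95% exact interval 879 to 8270, counting error only). LIN28A, an RNA-binding protein that blocks let-7 maturation, fell from 1727, 1914 and 1931 CPM to 72.5, 85.8 and 64.1 CPM, a log2 change of -4.65 ± 0.149 (adjusted p = 6.21e-08). LIN28A was thus still well above the floor in every day 14 IND library, unlike POU5F1. ZFP42, also known as REX1, fell by 4.19 on the log2 scale, from a mean of 79.7 CPM to 4.37 CPM. SOX2, which neural cells share with pluripotent cells, was at 47.8, 41.5 and 49.9 CPM at day 4 and at 41.4, 59.2 and 43.4 CPM at day 14 IND, so the groups overlapped (adjusted p = 0.831).

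WNT8A, a WNT ligand of the primitive streak, had 37.4, 28.2 and 29.5 CPM at day 4 and 0.183, 0.073 and 0.0968 CPM at day 14 IND (log2 change -8.11 ± 0.288, adjusted p = 1.2e-07). FGF4 had a mean of 4.61 CPM at day 4 and 0 counts in every day 14 IND library. MSGN1 and TBXT were at 2.11 and 3.63 CPM and fell to 0.0203 and 0.0434 CPM. WNT3, a further streak ligand, was at 12.6 CPM at day 4 and 15.3 CPM at day 14 IND and did not pass the test. Of 11 paraxial mesoderm and somite genes tested, 5 fell and 3 rose, with TCF15 at a log2 change of -3.52 and TBX18 at 6.93, so the mesoderm genes outside the streak list did not share 1 direction.

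Of 15 intermediate mesoderm genes tested, 7 rose and 4 fell (median 0.92). LHX1, which starts kidney formation, fell from 68.8, 63.9 and 66.7 CPM to 3.01, 2.56 and 2.92 CPM (log2 change -4.56 ± 0.133, adjusted p = 5.52e-08). SALL1 and GATA3, further transcription factors of the early kidney, fell by 2.81 and by 1.74 on the log2 scale. NPNT, a matrix ligand of integrin alpha 8, went from 73.3, 66.4 and 109 CPM to 607, 672 and 790 CPM (log2 change 3.05 ± 0.194, adjusted p = 1.95e-06). OSR1, one of the first markers of this mesoderm, rose from 6.11, 7.52 and 6.14 CPM to 15.7, 22.2 and 14.6 CPM (log2 change 1.40 ± 0.202, adjusted p = 0.000298). OSR1 was at 5.96, 6.91 and 4.99 CPM in day 14 CTRL, within the day 4 range or just under it.

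Of 17 coelomic epithelium and bipotential gonad genes tested, 8 were higher and 5 lower (median 0.63). WT1, the zinc finger factor of the coelomic epithelium, had 1 count at day 4 in all and 96.1, 89.5 and 105 CPM at day 14 IND. The ratio was 8520, with a 95% exact interval of 1530 to 336000 that reflects the single day 4 count. LHX9, a LIM homeobox factor needed for the gonadal ridge, had 0 counts in every day 4 library and 1.43, 2.75 and 3.29 CPM at day 14 IND, at least 24.1-fold higher. GATA4, which acts with WT1, rose from 54.8, 49.3 and 60.6 CPM to 195, 245 and 216 CPM (log2 change 1.99 ± 0.122, adjusted p = 1.52e-06), its groups wide apart. UPK3B, a surface protein of mesothelium, rose by a log2 change of 7.42, LHX2 by 4.07 and PODXL, the sialomucin podocalyxin, by 1.48. NR0B1, an orphan nuclear receptor that opposes NR5A1, fell from a mean of 19.8 CPM to 1.66 CPM. KRT19, a keratin of simple epithelia, was at 1130, 1007 and 1337 CPM at day 4 and at 271, 293 and 302 CPM at day 14 IND, a log2 change of -2.01 ± 0.128 (adjusted p = 1.84e-06). NR5A1 itself, the master regulator of steroidogenic gonadal cells, did not pass the filter on low counts, with 6 counts at day 4 and 25 at day 14 IND in all.

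Among granulosa lineage and pro-ovarian genes, 12 of 24 tested were higher and 6 lower (median 0.35). RSPO1, the secreted WNT enhancer of ovary determination, was at 0.836, 0.208 and 0.614 CPM at day 4 and 31.5, 39.7 and 40.4 CPM at day 14 IND (log2 change 6.06 ± 0.325, adjusted p = 6.69e-07). WNT4, the ovarian WNT ligand, rose from 1.31, 0.728 and 1.36 CPM to 8.07, 5.87 and 4.98 CPM (log2 change 2.47). AMHR2, the receptor of anti-Müllerian hormone, rose from 6.14, 5.68 and 4.95 CPM to 30.2, 28.5 and 28.4 CPM (log2 change 2.37 ± 0.15, adjusted p = 1.75e-06). The inhibin and activin subunits INHA and INHBA and the pre-granulosa factor RUNX1 rose by log2 changes of 2.66, 4.85 and 2.44 but stayed at means of 2.40, 6.37 and 5.85 CPM, and INHBB, a further subunit with 0 counts at day 4, reached only 0.365 to 0.794 CPM. LGR5, an R-spondin receptor also found in early supporting cells of the ovary, fell from 40.3, 47.4 and 35.5 CPM to 1.64, 2.26 and 1.59 CPM (log2 change -4.49 ± 0.2, adjusted p = 2.4e-07). KITLG, the ligand of KIT, and IRX3 fell by 1.40 and by 1.85 on the log2 scale. FSHR, the receptor of follicle-stimulating hormone, was at 2.80, 3.64 and 3.07 CPM at day 4 and at 1.83, 2.34 and 3.66 CPM at day 14 IND, overlapping (adjusted p = 0.473). FST, the activin antagonist follistatin, had means of 42.9 and 52.7 CPM and did not pass the test (log2 change 0.29, adjusted p = 0.115), and it was called at 0.49 with library totals alone, 0.39 with upper-quartile factors, 0.34 with no filter on low counts and 0.45 without day 4 replicate 3. CYP19A1, which makes oestrogen, and ESR1 had too few counts to be tested.

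Of 14 Sertoli lineage and pro-testis genes tested, 7 were higher and 1, NR0B1, lower (median 0.87). FGF9, a growth factor of testis determination, rose from 1.20, 1.66 and 1.32 CPM to 11.7, 10.8 and 11.7 CPM (log2 change 3.02 ± 0.213, adjusted p = 3.49e-06). GATM, which makes a creatine precursor, rose by a log2 change of 2.70. SOX10, a relative of SOX9 better known from the neural crest, rose from 1.02, 2.53 and 0.711 CPM to 65.2, 57.5 and 56.0 CPM. SOX9, the central testis factor, was at 15.5, 13.4 and 14.6 CPM at day 4 and 12.7, 11.1 and 9.84 CPM at day 14 IND, where the groups did not overlap but the test was not passed (log2 change -0.38, adjusted p = 0.0741). AMH, the hormone of Sertoli and granulosa cells, was at 12.2, 8.04 and 18.8 CPM and at 12.7, 14.5 and 10.8 CPM, with the groups overlapping (log2 change -0.04, adjusted p = 0.914). DMRT1 and DHH were below the filter.

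Of the 12 steroid hormone synthesis genes tested, 6 were lower and 1 higher (median -0.51), and 8 of the 20 listed were too low to be tested. SRD5A1, a steroid reductase, fell by 1.02 and CYP11A1, the first enzyme of the pathway, by 0.91 on the log2 scale, the latter from a mean of 4.78 CPM to 2.56 CPM. TSPO, a mitochondrial cholesterol-binding protein, was the higher one, at a log2 change of 0.45, and lost its call without day 4 replicate 1 or day 14 IND replicate 1 or 3 and in 1 fit over all 33 libraries. In place of 7, the number called was 3 without day 4 replicate 1 or day 14 IND replicate 3, and 4 without day 14 IND replicate 1 or 2.

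**Figure D2:**
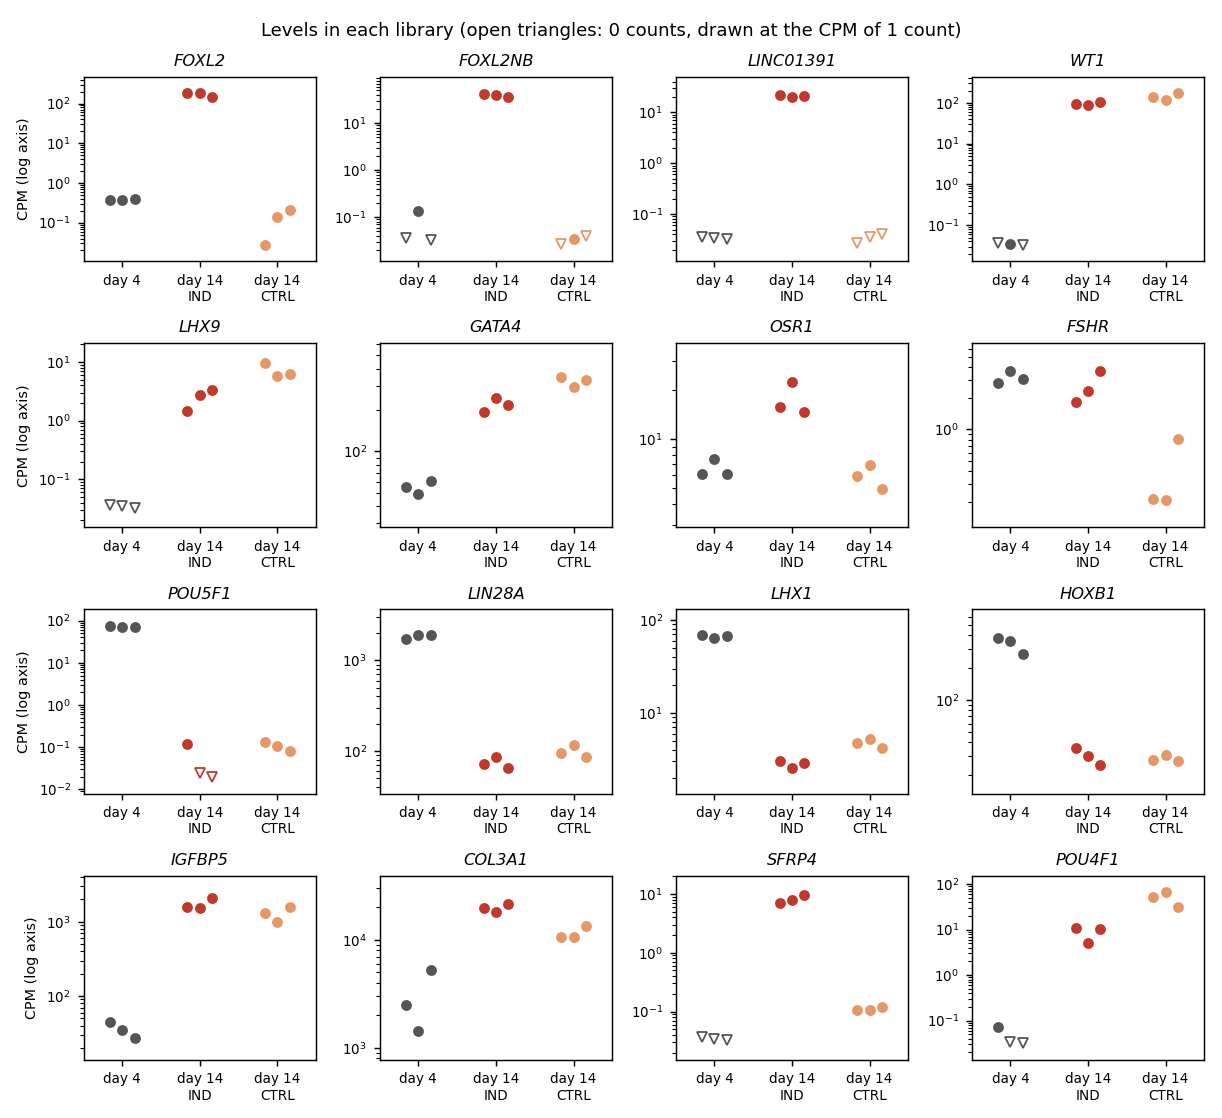
Levels of 16 genes in each library of day 4, day 14 IND and day 14 CTRL (CPM, log axes that differ between panels), 1 point per library, with open triangles for libraries with 0 counts. FOXL2, FOXL2NB and LINC01391 are high only in day 14 IND among these groups; WT1, LHX9, GATA4, IGFBP5 and POU4F1 are above day 4 in both day 14 groups; POU5F1, LIN28A, LHX1 and HOXB1 are below day 4 in both.

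Among all protein-coding genes with at least 10 CPM in the higher group, the 12 largest rises by fitted fold change included SPRR2F, a small proline-rich protein of squamous epithelium with near-identical relatives, from 0 counts to 45.4, 37.9 and 43.1 CPM, at least 408-fold. MGP, the matrix Gla protein that inhibits calcification, went from 0 counts to 17.5, 9.44 and 30.8 CPM, and CFI, the protease that inactivates complement, from 0 counts to 16.3, 12.9 and 14.3 CPM. These are at least 186-fold and at least 140-fold higher. For genes with 0 counts at day 4 the fitted value depends on the prior count, so their order among the 12 is not established. The others were WT1, TMEM151A, FOXL2NB, the phosphate transporter SLC34A2, the neural crest factor TFAP2B, the smooth muscle actin ACTG2, FOXL2, the muscarinic receptor CHRM2 and PKHD1L1, with fitted log2 changes between 8.75 and 12.65.

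The 12 largest falls began with POU5F1, WNT8A and NPPB, the natriuretic peptide of heart muscle, which fell from 253, 212 and 245 CPM to 1.58, 1.99 and 2.32 CPM (log2 change -6.90 ± 0.168, adjusted p = 2.11e-08). HHIPL2, VRTN, XIRP1, ZSCAN10, FOXH1, CFC1, CDX1, PLSCR5 and FGF17 completed them, with log2 changes from -6.33 to -4.98. FOXH1 and CFC1 serve NODAL signalling, and reads of CFC1 can also come from CFC1B, so its level is uncertain. CDX1 is a caudal homeobox factor of posterior mesoderm, and ZSCAN10 a zinc finger factor of pluripotent cells.

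By level per gene length (mean FPKM, fragments scaled by gene length and library size, as deposited), the largest gains included matrix and growth factor-binding genes. COL3A1, type III collagen, was at 2500, 1419 and 5220 CPM at day 4, the last in the replicate that stood apart, and at 19730, 18030 and 21430 CPM at day 14 IND. Every induced library was thus above every day 4 library by a wide margin, and the log2 change was 2.69 ± 0.39 (adjusted p = 0.000313), or 3.35 without day 4 replicate 3. COL1A1 and COL1A2, the 2 chains of type I collagen, rose by log2 changes of 1.15 and 1.28, or 1.58 and 1.87 without that replicate. IGFBP5, an insulin-like growth factor-binding protein, rose from 45.3, 34.9 and 27.6 CPM to 1581, 1556 and 2108 CPM (log2 change 5.60 ± 0.231, adjusted p = 1.96e-07). SPARC, GPC3, TMSB4X and EZR completed these 8 gains, at log2 changes of 1.89, 1.64, 0.87 and 2.77.

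The largest losses of FPKM were 4 ribosomal protein genes, RPL13A, RPS2, RPL7A and RPS12, the chaperone HSP90AB1, the nucleolar NPM1, the elongation factor EEF2 and CRABP2. CRABP2, which carries retinoic acid to its receptor, fell from 1226, 1007 and 1289 CPM to 358, 366 and 319 CPM (log2 change -1.76 ± 0.127, adjusted p = 3.98e-06). RPL13A, RPS2, NPM1 and HSP90AB1 fell by 1.01, 0.87, 1.41 and 1.05 on the log2 scale. Ribosomal protein genes and several of the others have many processed pseudogenes, so the assignment of their reads is uncertain.

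**Figure D3:**
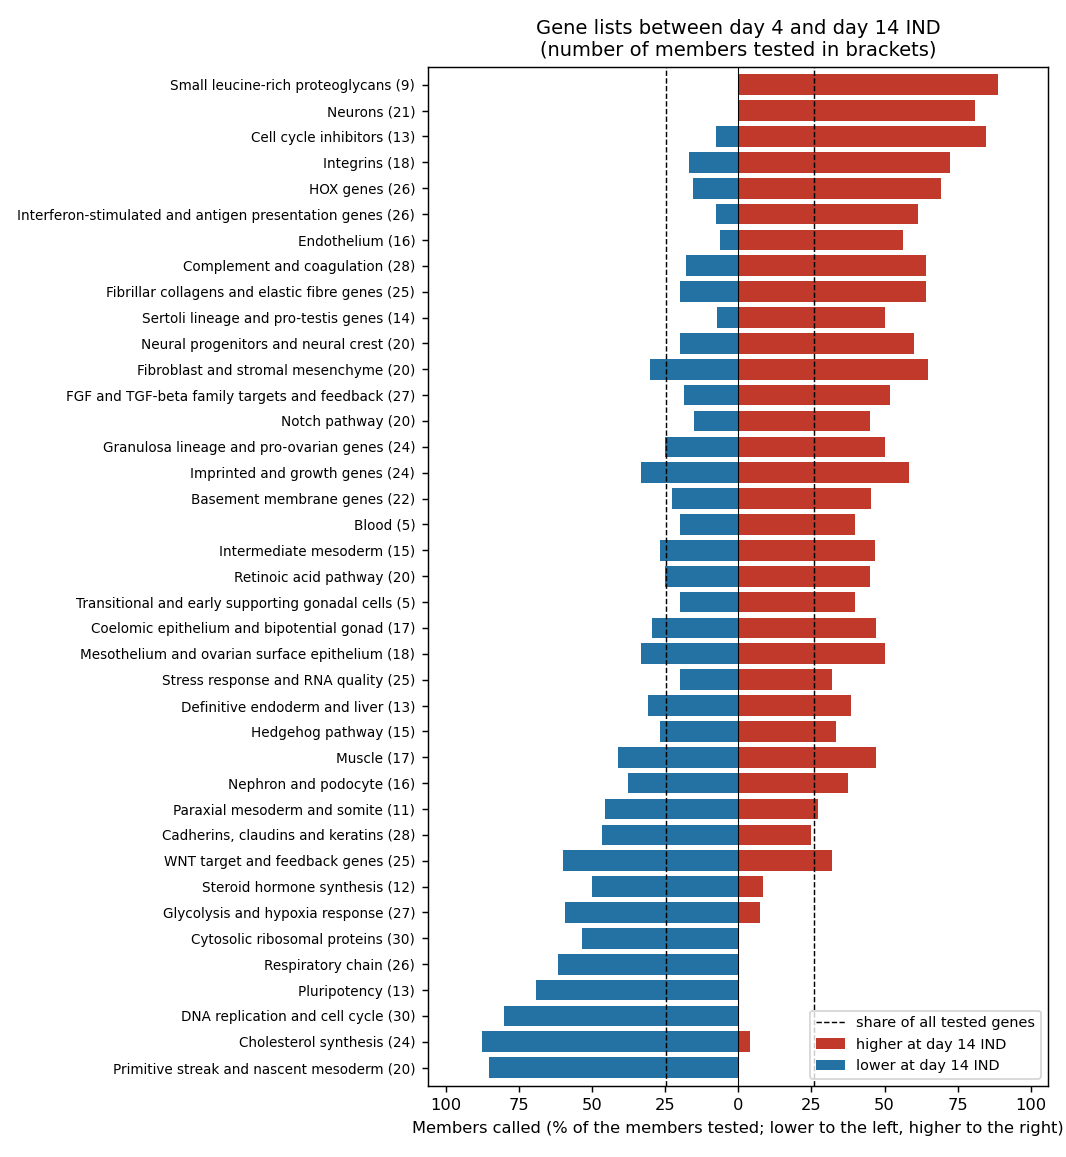
Share of the tested members of each of the 39 gene lists that was called lower (blue, to the left) or higher (red, to the right) between day 4 and day 14 IND, in % of the members tested, whose number stands in brackets. The dashed lines mark the shares over all genes, 24.8% and 25.8%; the lists are ordered by the share higher minus the share lower, from small leucine-rich proteoglycans and neurons at the top to primitive streak genes at the bottom.

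Of 20 fibroblast and stromal mesenchyme genes, all tested, 13 rose and 6 fell (median 1.21), and their summed level went from 8790 to 16390 CPM at day 4 to 31560 to 36330 CPM at day 14 IND. Of the 25 fibrillar collagen and elastic fibre genes 16 rose and 5 fell (median 1.03), with the same counts of 16 and 5 without day 4 replicate 3. DCN, the proteoglycan decorin that binds collagen fibrils, went from 2.65, 1.32 and 4.49 CPM to 571, 537 and 846 CPM (log2 change 7.84 ± 0.397, adjusted p = 5.08e-07). POSTN, the matrix protein periostin, went from 18.6, 14.9 and 12.2 CPM to 377, 359 and 424 CPM. Of 9 small leucine-rich proteoglycans tested, 8 rose and none fell (median 3.90), with ASPN, which had 0 counts at day 4, at least 21.0-fold higher and OGN at a log2 change of 4.73.

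The stromal lists also held genes that fell. PRRX1, a homeobox factor of mesenchyme, fell from 322, 321 and 293 CPM to 60.2, 50.4 and 65.8 CPM (log2 change -2.41 ± 0.124, adjusted p = 5.09e-07). PDGFRA, a receptor of stromal progenitors, fell by 1.17 and VIM, vimentin, by 1.03. Among elastic fibre genes, ELN and FBN2 fell by 2.56 and by 1.84, while MFAP5, FBLN5 and the crosslinking enzyme LOX rose by 5.35, 5.15 and 3.66. Of 22 basement membrane genes tested 10 rose and 5 fell (median 0.28), the laminin chains LAMA4 and LAMA3 rising by 6.60 and 3.60 and LAMA1, the chain of the early embryo, falling by 2.21. Integrins, the receptors of these proteins, rose in 13 of 18 and fell in 3 (median 1.73), with ITGB3 at a log2 change of 6.05, ITGA3 at 4.38 and ITGA11 at 3.68 among those at 2 CPM or more. In the list of cadherins, claudins and keratins 13 of 28 fell and 7 rose (median -0.54), with KRT7 at -4.63, CLDN6 at -2.23 and CLDN1 at 4.45.

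Of 25 WNT target and feedback genes tested, 15 fell and 8 rose (median -0.49). The 3 strongest falls at 2 CPM or more were TBXT, CDX1 and LGR5, and the 3 strongest rises were the secreted WNT antagonists SFRP4, WIF1 and FRZB. TBXT, CDX1, CDX2 and SP5 are also members of the primitive streak list, so the counts of the 2 lists are not separate. SFRP4 had 0 counts in every day 4 library and 6.94, 7.71 and 9.59 CPM at day 14 IND, at least 78.2-fold higher. FRZB rose from 24.9, 19.02 and 34.7 CPM to 566, 401 and 791 CPM (log2 change 4.48 ± 0.294, adjusted p = 2.37e-06).

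Of 27 FGF and TGF-beta family genes 14 rose and 5 fell (median 0.44): the ligands TGFB3 and TGFB2 and the latency protein LTBP2 rose by 6.98, 4.22 and 3.85, whereas DUSP6, a phosphatase induced by FGF-ERK signalling, and SPRY1 fell by 2.70 and by 1.36. In the Notch list 9 of 20 rose and 3 fell (median 0.39), led by HES5, a target gene, at 2.56. In the Hedgehog list 5 of 15 rose and 4 fell (median 0.16), with the ligand SHH at 5.56 and the ligand IHH at -2.30. Retinoic acid genes gave 9 higher and 5 lower of 20 (median 0.36). Their summed level fell, from 1925 to 2328 CPM at day 4 to 1161 to 1271 CPM at day 14 IND. RARRES3, a retinoid-induced gene, had 1 count at day 4 and a mean of 4.14 CPM at day 14 IND, and RARRES2 rose by 3.00. CYP26A1, which degrades retinoic acid, and RDH10, which makes its precursor, fell by 3.25 and by 2.07.

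HOX genes, a family of homeobox factors, are numbered by paralogue group from the 3′ to the 5′ end of each cluster and specify position along the body axis. Of 26 tested, 18 rose and 4 fell (median 1.63). In group 1, HOXB1 went from 381, 359 and 270 CPM to 35.1, 30.0 and 24.4 CPM (log2 change -3.50 ± 0.184, adjusted p = 5.91e-07). HOXD1 fell by 1.27, but did not pass the test without day 4 replicate 3 (-0.80) or without day 14 IND replicate 2 or 3, nor in the fit over all 33 libraries. In groups 4 to 9, a division made after the values were seen, 15 of 18 rose and none fell (median 2.58), against 3 higher and 4 lower of 8 in groups 1 to 3 (median 0.07). HOXC5, which overlaps other HOXC transcripts, had 5 counts at day 4 in all and 16.1, 12.3 and 9.86 CPM at day 14 IND, 214-fold higher (95% exact interval 91.6 to 661). HOXD9 and the genes of groups 10 to 13 were too low to be tested, HOXA10 for example with 0 counts at day 4 and 35 at day 14 IND.

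**Figure D4:**
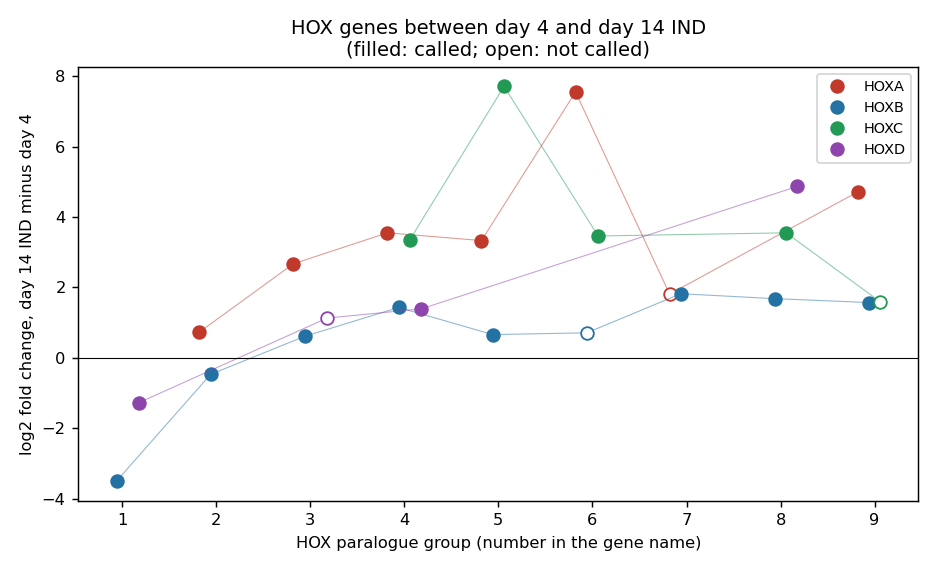
Log2 fold change, day 14 IND minus day 4, of 25 of the 26 tested HOX genes against the paralogue group in their name, coloured by cluster, with filled points for genes that were called and open points for those that were not. The genes of group 1 lie below 0 and those of groups 4 to 9 above it; the points near the top are HOXC5, with 5 counts at day 4, and HOXA6, with 0, whose fitted value depends on the prior count and which is named for that reason.

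Of 30 DNA replication and cell cycle genes, 24 fell and none rose (median -0.90), and their summed level went from 5216 to 6096 CPM down to 2985 to 3193 CPM. MCM3, part of the replicative helicase, fell from 492, 428 and 676 CPM to 150, 148 and 139 CPM (log2 change -1.87 ± 0.159, adjusted p = 1.09e-05). MKI67, the proliferation marker, was at 217 and 173 CPM on average and did not pass the test, but without day 4 replicate 3 it fell by 0.44 (adjusted p = 0.000633). Conversely, 11 of 13 cell cycle inhibitors rose and 1 fell (median 0.92), with CDKN2B at 1.97, CDKN2D at 1.75 and CDKN2C, which rose from 0.19 CPM to 7.61 CPM, at 5.27.

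Cholesterol synthesis genes fell in 21 of 24 and rose in 1 (median -0.90), with CYP51A1, an enzyme of the later steps, at -1.22, though it lost its call without day 14 IND replicate 3 (-1.06). Glycolysis and hypoxia genes fell in 16 of 27 and rose in 2 (median -0.68): the glucose transporter SLC2A3 fell by 3.12, the peptide ADM by 1.57 and the enzyme PGAM1 by 1.20, while NDRG1 rose by 1.68. Cytosolic ribosomal protein genes fell in 16 of 30 and respiratory chain genes in 16 of 26, with none higher in either (medians -0.43 and -0.42). These small shifts depend on the scaling, since with library totals alone, which moves the median of all genes by 0.20, only 6 respiratory chain genes were called. Of 24 imprinted and growth genes tested 14 rose and 8 fell (median 0.71), with IGFBP5, IGFBP7 and IGFBP3 at 5.60, 5.12 and 4.61 and PHLDA2 and IGF2, the fetal growth factor, at -2.40 and -1.84.

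Genes that mark other cell types than gonadal ones also rose, and their part in the other changes was not tested. Of 21 neuronal genes, all tested, 17 rose and none fell (median 2.63), with a summed level of 64.5 to 117 CPM at day 4 and 439 to 513 CPM at day 14 IND. POU4F1 and NEUROD1, factors of neuronal differentiation, each had 2 counts at day 4 in all and means of 8.83 and 7.96 CPM at day 14 IND. Of 20 neural progenitor and neural crest genes 12 rose and 4 fell (median 0.92), with a summed level of 988 to 1439 CPM and then 893.6 to 984 CPM. TFAP2B rose to 31.1, 28.2 and 36.0 CPM from at most 0.145 CPM, whereas MSX1 fell by 3.04.

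Endothelial genes rose in 9 of 16 and fell in 1 (median 1.92), but at low levels: EMCN, ESAM and ERG reached means of 3.13, 3.39 and 2.21 CPM, KDR did not pass the test, and VWF fell by 2.92. Their summed level was 138 to 192 CPM at day 4 and 189 to 222 CPM at day 14 IND. Blood genes gave 2 higher and 1 lower of 5 tested, and PTPRC, the common leukocyte antigen, was too low to be tested. Muscle genes gave 8 higher and 7 lower of 17 (median 0.40), with TBX20, TBX5 and DES, desmin, rising by 4.64, 3.13 and 2.78 and ACTC1, MYL4 and HAND1 falling by 3.89, 2.42 and 1.71. Endoderm and liver genes gave 5 higher and 4 lower of 13, among them TTR and AFP, which reached means of 7.33 and 13.4 CPM, and FOXA3 and FOXA2, which fell by 2.39 and by 1.73. The median of this list, -0.08, is above 0 under library totals (0.12) and upper-quartile factors (0.01), and ALB was too low to be tested.

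Nephron and podocyte genes gave 6 higher and 6 lower of 16 (median 0.22): besides WT1 and PODXL, shared with the coelomic epithelium, NPHS1, the slit protein nephrin, rose by 4.37 to a mean of 2.95 CPM, and SYNPO by 2.76. Mesothelium and ovarian surface epithelium genes gave 9 higher and 6 lower of 18 (median 0.47). Their summed level fell, from 5570 to 5987 CPM at day 4 to 3219 to 3543 CPM at day 14 IND. Next to WT1 and UPK3B, GPM6A rose by 3.67, while KRT7, KRT19 and EPCAM fell by 4.63, 2.01 and 1.71. BNC1, a zinc finger factor of this epithelium, rose by 2.45 to a mean of 358.5 CPM, and is named after its values were seen.

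Of 26 interferon-stimulated and antigen presentation genes tested, 16 rose and 2 fell (median 1.5), the call of HLA-C, at -0.45, being lost without day 14 IND replicate 1 or 3, under library totals and with limma on log2(FPKM + 1) (adjusted p = 0.0512). IFIT3, TLR3 and PSMB8, an antiviral effector, a sensor of double-stranded RNA and an immunoproteasome subunit, reached means of 8.33, 4.52 and 7.05 CPM from day 4 means of at most 0.0883 CPM. The summed level of the whole list moved less, from 597 to 677 CPM to 735 to 758 CPM. Complement and coagulation genes rose in 18 of 28 and fell in 5 (median 0.72), with C1S, a protease of the classical pathway, at a log2 change of 4.03 and C3 falling by 2.32. Of 25 stress and RNA quality genes 8 rose and 5 fell (median -0.02), with EGR1 at 3.66 and CHAC1 at -2.02. This median is above 0 under library totals and upper-quartile factors. The mitochondrial transcripts on the list make its sum at day 4 range from 7597 to 21780 CPM, against 13780 to 15400 CPM at day 14 IND.

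Among the transcription factor families named in the deposited annotation, the shares called higher were 60% of 20 ETS factors, 52.9% of 17 nuclear receptors (THR-like), 50% of 34 forkhead factors, 44.9% of 78 bHLH factors and 44.1% of 118 homeobox factors, each with at most 22.9% lower. The large group of 556 C2H2 zinc finger factors had 23.9% higher and 17.8% lower, and 21 MYB factors 9.52% higher and 38.1% lower. Of 516 processed pseudogenes 3.88% were higher and 22.5% lower, against 27.7% and 27.7% of 15033 protein-coding genes. Of 956 lincRNAs 24.4% were higher and 13% lower.

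Besides LINC01391, the non-coding genes with the largest rises were DNM3OS, which carries microRNAs of mesenchyme, and WT1-AS, which starts beside WT1 on the opposite strand. Both had 0 counts at day 4, and DNM3OS reached 10.8, 8.59 and 14.7 CPM and WT1-AS 11.6, 10.5 and 11.5 CPM. AC073174.2, MIR1-1HG-AS1 and MIR100HG followed at log2 changes of 5.25, 5.09 and 4.72. Since the libraries keep no strand, counts of WT1-AS and DNM3OS cannot be told apart from those of the genes they overlap. The largest non-coding falls were LINC00458, LINC00379, AC007319.1, LINC01356, SNHG4 and LHX1-DT, from -7.66 to -4.13, the last of them neighbouring LHX1.

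The change over the course can be set beside the end point of the uninduced course. At day 14, 1606 of 19055 genes tested (8.43%) differed between IND and CTRL, 612 (3.21%) higher and 994 (5.22%) lower in IND. Without day 14 IND replicate 3 the number was 905, and without the other libraries 1077 to 1987. Of the 9533 genes that changed from day 4 to day 14 IND, 9341 were tested against CTRL and 1185 differed from it. Both comparisons share the day 14 IND libraries, so the values of the 2 comparisons are given side by side and the counts are not read as an overlap. Of the genes that rose, 438 were above CTRL and 449 below it, and of those that fell, 243 were below and 55 above CTRL.

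The genes farthest from CTRL were ranked among those that changed from day 4. They also had at least 10 CPM in the higher group and no overlap of the IND and CTRL libraries. Above CTRL in this ranking, after the 3 genes of the FOXL2 locus, stood C7, FIBIN, SH3GL2, EDN3 and SPTSSB. C7, a component of the terminal complement complex, was at 2.62, 3.43 and 2.52 CPM at day 4, 25.6, 39.0 and 20.9 CPM at day 14 IND and 2.65, 2.70 and 1.22 CPM at day 14 CTRL. FIBIN, a secreted protein, was at 1.85, 1.87 and 3.91 CPM, 23.5, 27.1 and 30.1 CPM, and 2.75, 2.70 and 4.18 CPM. In both genes the CTRL libraries lay near day 4 and only the IND libraries were high. EDN3, the ligand endothelin 3, was above CTRL by 2.61 ± 0.164 on the log2 scale (adjusted p = 2.21e-06) and above day 4 by 2.63. SFRP4 and RARRES3, with means under 10 CPM at day 14 IND, were outside this ranking. SFRP4, at 0.107, 0.105 and 0.122 CPM in CTRL, was above it by 6.15 ± 0.312 (adjusted p = 1.32e-07), and RARRES3 by 4.05.

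Below CTRL in the same ranking, although higher than at day 4, stood HMX1, SOST, CNTN2, KLK5, TBX18, TM4SF1, SHOX2 and CDKN2B. TBX18, a T-box factor of epicardium and gonadal stroma, was at 0.363, 0.104 and 0 CPM at day 4, 16.2 to 20.3 CPM at day 14 IND and 133, 93.0 and 164 CPM at day 14 CTRL. CNTN2, a contactin of axons, rose from 0.545, 0.45 and 0.485 CPM to 26.4, 19.4 and 24.3 CPM in IND and to 220, 220 and 115 CPM in CTRL. These genes rose in both courses and less far in IND. Of all genes tested against CTRL, 3.21% were higher and 5.22% lower in IND. Of the 21 neuronal genes, none was above and 17 were below CTRL (median -1.42, summed level 701 to 1145 CPM in CTRL), and of the 20 neural progenitor and crest genes 11 were below.

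In the gonadal lists, GATA4 was at 347, 292 and 328 CPM in CTRL and below it in IND by 0.55 (± 0.103, adjusted p = 0.00399), and WT1, at 141, 117 and 173 CPM in CTRL, by 0.57 (± 0.131, adjusted p = 0.0219). The call of WT1 was lost without any 1 of the day 14 IND libraries or day 14 CTRL replicate 1 (adjusted p of 0.063 to 0.0854), with limma and in 1 fit over all 33 libraries. LHX9 was below CTRL by 1.51 (adjusted p = 0.011, or 0.0949 in the fit over all 33 libraries). For all 3, the mean of day 14 IND lay between day 4 and day 14 CTRL. OSR1, FGF9 and GATM were above CTRL by 1.56, 0.65 and 1.19, the call of FGF9 being lost without day 14 IND replicate 1 or 3 or day 14 CTRL replicate 1. FSHR, which did not pass the test against day 4, was above CTRL by 2.74 ± 0.492 (adjusted p = 0.00466), with CTRL at 0.214, 0.211 and 0.812 CPM. RSPO1, AMHR2, WNT4, SOX9 and NR0B1 did not pass the test against CTRL, at differences of 0.13 ± 0.111, -0.17 ± 0.0996, -0.86 ± 0.291, -0.74 ± 0.241 and -0.41 ± 0.309. Without day 14 CTRL replicate 3, WNT4 and SOX9 were below CTRL, at -1.04 and -0.99 (adjusted p = 0.0349 and 0.000135). Both were also called by DESeq2 and by edgeR with no filter on low counts. SOX9 was called in the fit over all 33 libraries too (-0.74, adjusted p = 0.0386). Of the 25 collagen and elastic fibre genes 7 were above and 2 below CTRL, against 3.21% and 5.22% of all genes tested. COL3A1 was above CTRL by 0.77 (adjusted p = 0.00245, or 0.238 in the fit over all 33 libraries). Of 27 interferon and antigen presentation genes 13 were above CTRL and none below, against the same shares.

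**Figure D5:**
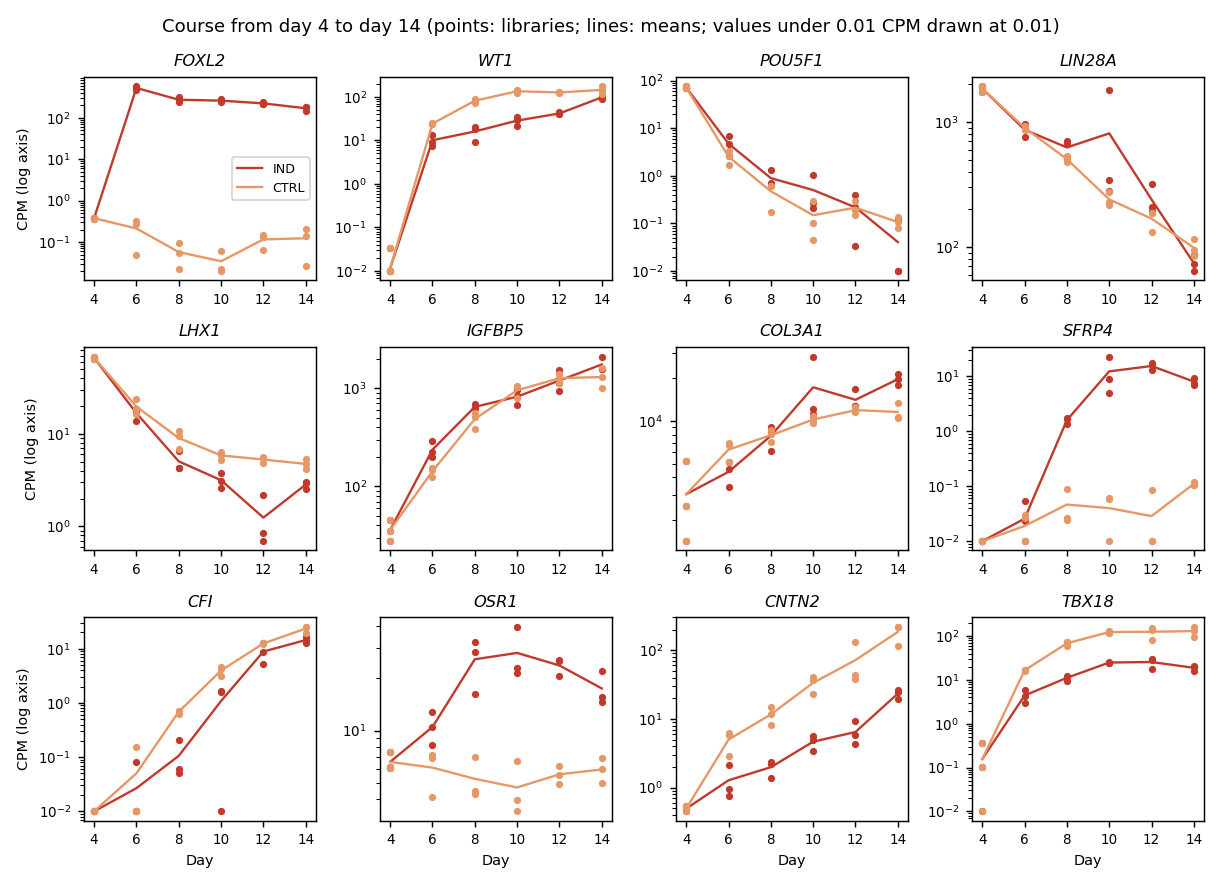
Levels of 12 genes from day 4 to day 14 (CPM, log axes that differ between panels), with points for libraries and lines for group means, in red for IND and in orange for CTRL; the day 4 libraries are the same in both. FOXL2 and SFRP4 part from CTRL by orders of magnitude, POU5F1 and LHX1 fall in both, WT1, TBX18 and CNTN2 rise in both and less far in IND, and OSR1 rises only in IND; day 10 IND replicate 2 is the point far from its group in LIN28A and COL3A1.

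The libraries between day 4 and day 14 IND show how much of the change to day 14 was present on each day. Whether the levels had settled by day 14 cannot be seen, since no later day was sampled. For the 3136 genes higher by at least 2-fold, the median share of the final log2 change was 45.9% at day 6 IND, 65% at day 8, 75.1% at day 10 and 87.7% at day 12. For the 1746 lower genes it was 51.2%, 68.6%, 81% and 84.7%. Day 10 IND replicate 2 stood apart from its group, and without it the day 10 shares were 81% and 82%. These shares describe genes chosen by their end points and were not tested.

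FOXL2 itself was highest at day 6, at 577, 546 and 461 CPM, and then lay between 147.5 and 320 CPM. WT1 was at 13.5, 9.23 and 7.43 CPM at day 6 and 39.2, 39.8 and 45.4 CPM at day 12, so it rose again between day 12 and day 14. POU5F1 was at 2.63, 4.66 and 6.89 CPM at day 6 already, while LIN28A was still at 757, 892 and 957 CPM. The streak list had library medians of -2.61 to -1.77 on the log2 scale against day 4 at day 6, which overlap the -3.32 to -1.99 of day 14. The HOX list, here of 28 genes, stood at -0.30 to 0.49 at day 6, within the -0.32 to 0.52 of the day 4 libraries themselves. At day 12 it was at -0.00 to 0.93, with a middle library of 0.52, and at day 14 at 1.55 to 2.21. The DNA replication list stood at -0.12 to 0.01 at day 6 and -0.88 to -0.84 at day 14. Endoderm and liver genes were higher in between, with library medians of 1.71 to 2.68 at day 8 and of -0.23 to 0.41 at day 14.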

How the data were processed

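Bulk RNA was read as paired-end, non-directional poly-A libraries. The authors trimmed the reads with fastp 0.23.2, aligned them to GRCh38 with HISAT2 2.0.5 and made the deposited counts per gene with featureCounts 1.5.0-p3; the deposited FPKM values were used for levels per gene length and for an alternative test. Here the counts of 58735 genes were filtered with filterByExpr, scaled with TMM and tested with edgeR's quasi-likelihood test and Benjamini-Hochberg adjustment at 0.05, day 14 IND against day 4 and against day 14 CTRL in separate fits of 6 libraries. Printed CPM use TMM factors over all 33 libraries. Ratios for genes with few counts carry exact 95% binomial intervals, which cover counting error only, as do floors. Named genes were the FOXL2 locus, the 12 largest fitted rises and falls at 10 CPM or more, the 8 largest FPKM gains and losses, the 3 largest called changes per list and direction at 2 CPM or more, gonadal list members, the 6 largest non-coding changes in each direction, and the 8 genes farthest above and below CTRL. The genes farthest from CTRL were taken at 10 CPM or more, without overlap of IND and CTRL, among genes called from day 4. The comparison, gene lists and rules were chosen with earlier results of these data known. In simulated data with 200 changed genes, edgeR found 65 of 100 2-fold and 77 of 100 4-fold changes from day 4. Of its 152 calls 10 were false. Against CTRL it found 69 and 95, with 12 of 176 calls false. DESeq2 made 34 false calls of 186 from day 4 and 26 of 193 against CTRL. Many more genes changed from day 4 in the real data, a setting that the simulation did not cover. Alternatives were other scalings, filters and tools, a replicate block and each library left out. Some genes are not reported here.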

Additional observations from a re-analysis of the deposited data

Results flagged for a closer look

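Of the 18858 genes tested from day 4, 23 went opposite ways in the 2 courses. In these the IND libraries of day 14 were all above and the CTRL libraries all below the day 4 libraries, or the reverse. The change from day 4 to IND and the difference at day 14 passed edgeR's test, while that from day 4 to CTRL was not tested. The 4 genes with the largest differences are given. FOXL2, the targeted gene, differed by 10.55 on the log2 scale, IND minus CTRL (adjusted p = 2.12e-10). Its levels in CTRL lay near or under the floor, which was 0.0801 to 0.122 CPM in those libraries. GCGR, the glucagon receptor, differed by 3.34 (adjusted p = 0.000728). On average it was at 0.392 CPM at day 4, 1.25 CPM at day 14 IND and 0.118 CPM at day 14 CTRL. This CTRL mean also lies at the floor of those libraries. The rise of GCGR from day 4 lost its call without day 14 IND replicate 2. TNFRSF11A, the receptor RANK, differed by 2.76 (adjusted p = 0.000614), with means of 1.06, 2.69 and 0.404 CPM in the same order. HOPX, a homeodomain-only cofactor, differed by 2.59 (adjusted p = 0.000123), with means of 3.06, 5.76 and 0.929 CPM.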

How the results depend on the processing

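The number of genes changed from day 4 to day 14 IND, 9533, lay between 7828 and 10722 when 1 library was left out and between 8360 and 10343 under the other scalings, filters and tools, and it was 4882 when a log2 change of at least 1 was also asked for. The 1606 genes that differed between day 14 IND and CTRL became 2448 with no filter on low counts, 697 with a log2 change of at least 1, 861 in 1 fit over all 33 libraries, and 905 to 1987 with 1 library left out, the lowest without day 14 IND replicate 3. Samples that share a replicate number did not deviate together (correlations of -0.006, 0.042 and -0.004 from day 4 to day 14 IND and of -0.019, -0.014 and 0.078 between IND and CTRL), so the numbers were not taken as pairs; with the replicate block 8829 and 1948 genes were called, and MKI67 from day 4 (-0.32, adjusted p = 0.0489) and SOX9 against CTRL (-0.68, adjusted p = 0.0149) passed the test. The limit set by depth is a floor of 0.0581 to 0.109 CPM per library. Of the named genes called from day 4 to day 14 IND, and of the 34 genes whose difference from CTRL is given, none that was called changed its direction under these alternatives. AMH, not called and near 0 at -0.04, was at 0.16 with library totals, 0.06 with upper-quartile factors, 0.00 with no filter, 0.04 and 0.06 with limma on FPKM and 0.02 with the replicate block, and between -0.28 and 0.34 with 1 library left out. SOX2, at 0.04, lay between -0.13 and 0.14 with 1 library left out. Of 190 named genes, 21 changed a call or, uncalled, their sign under some alternative from day 4 to day 14 IND, and 7 of the 34 against CTRL; from day 4, with no filter on low counts COL1A2, EPCAM, FOXA2, HES5 and NDRG1 lost theirs. The causes were not tested.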
